A study of Arabidopsis thaliana with 11 samples.

Results

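ALCATRAZ (ALC) and SPATULA (SPT) are closely related genes of Arabidopsis that encode transcription factors of the basic helix-loop-helix (bHLH) class. The ATH1 array carried 1 probe set for each, 247035_at for ALC (locus AT5G67110) and 246212_at for SPT (locus AT4G36930). Both were taken by gene name, as every probe set annotated to either gene and to no other, and the rule used no measured value, although the genes were picked for description with earlier results of these data known. They made up 2 of 22810 probe sets, of which 13513 named a single gene in the annotation used here.

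SPT is known for the growth and joining of the carpel margins, from which the septum, the transmitting tract, the style and the stigma form, and it also restrains the growth of cotyledons and leaves and acts in seed germination. ALC is known for the valve margin of the fruit, where it is needed for the separation layer of thin-walled cells along which the ripe fruit opens. Both proteins act together in the gynoecium and can partly stand in for each other, and DELLA proteins, the repressors of gibberellin response, can bind ALC.

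The samples were wild-type plants of the Columbia-0 (Col-0) accession, stock N1092, with no mutation or transgene in the labels. Flowers at 29 days after germination, opened ones and closed buds together, gave 4 arrays, the uppermost 2 inches of the stem at the same age, without siliques or pedicels, gave 4, and rosette leaves at 15 days gave 3. No sample was a fruit or a dissected carpel, and leaf differed from the other tissues in plant age as well as in organ. The plants of each sample were given 16 h of light at 125 umol per square metre and second, with 25 C in the day and 20 C in the night. Titles carried a code, GH or GC, with 2 GH and 2 GC arrays in flower, the same in stem, and 2 GH and 1 GC in leaf. The growth space was a greenhouse in the labels of the leaf GH arrays and a controlled system in those of the other 9, so what the code stood for was not settled. The labels did not say that replicates were separate plants, so the p-values rest on a spread that may be technical.

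The deposited values were MAS5 signals on a linear scale. A signal of 28.1, the 40th percentile of all values, served as a dim limit, and the share of probe sets above it was 62.4% to 64.6% in flower, 57.5% to 58.8% in stem and 57.5% to 58.4% in leaf. The 4 measured flower markers, genes of the tapetum and of pollen, summed to signals of 1444 to 1523 in flower, with 3 or 4 of them above the limit, to 22.4 to 41.0 in stem and to 18.5 to 29.1 in leaf, where 0 of 4 were above it. The 3 stem markers, genes of secondary wall xylan, summed to 735 to 1637 in stem, 78.2 to 112 in flower and 71.4 to 92.2 in leaf. The 4 leaf markers, genes of photosynthesis, summed to 3778 to 5474 in flower, 8987 to 13214 in stem and 17610 to 19077 in leaf. Stem GH 1 stood apart in RNA quality: the mean log2 ratio of 3' over 5' signal of the actin, GAPDH and ubiquitin controls was 2.92 there, against 0.92 to 1.36 on the other stem arrays, 1.38 to 2.16 in flower and 0.98 to 1.09 in leaf. Leaf GC 1 was the only leaf array with a controlled system in its label. Results on ALC and SPT are therefore given with and without these arrays.

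ALC was highest in flower, with stem and leaf both far below it. In flower its signal was 183 on GH 1, 135 on GH 2, 162 on GC 1 and 123 on GC 2, a mean of 151 ± 27.2 (SD, n = 4). In stem it was 47.4 on GH 1, 19.0 on GH 2, 24.8 on GC 1 and 28.3 on GC 2, a mean of 29.9 ± 12.3 (SD, n = 4). In leaf it was 40.7 on GH 1, 34.9 on GH 2 and 34.3 on GC 1, a mean of 36.6 ± 3.56 (SD, n = 3). Every flower array lay above every stem and leaf array, while the stem arrays lay on both sides of the leaf arrays: stem GH 1 above all of them and the other 3 below. ALC was above the dim limit on 4 of 4 flower arrays, 2 of 4 stem arrays and 3 of 3 leaf arrays, so its level in stem was close to the level below which signals were treated as dim.

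SPT was also highest in flower, with a smaller gap to the other tissues. In flower its signal was 130 on GH 1, 147 on GH 2, 110 on GC 1 and 133 on GC 2, a mean of 129.9 ± 15.4 (SD, n = 4). In stem it was 42.9 on GH 1, 61.8 on GH 2, 62.7 on GC 1 and 47.8 on GC 2, a mean of 53.8 ± 9.97 (SD, n = 4). In leaf it was 43.7 on GH 1, 59.3 on GH 2 and 42.5 on GC 1, a mean of 48.5 ± 9.35 (SD, n = 3). Flower again did not overlap with stem or leaf, and the stem and leaf arrays lay among each other. All 11 arrays were above the dim limit for SPT, so the gene was measured in vegetative tissue at a signal clear of it.

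**Figure D1:**
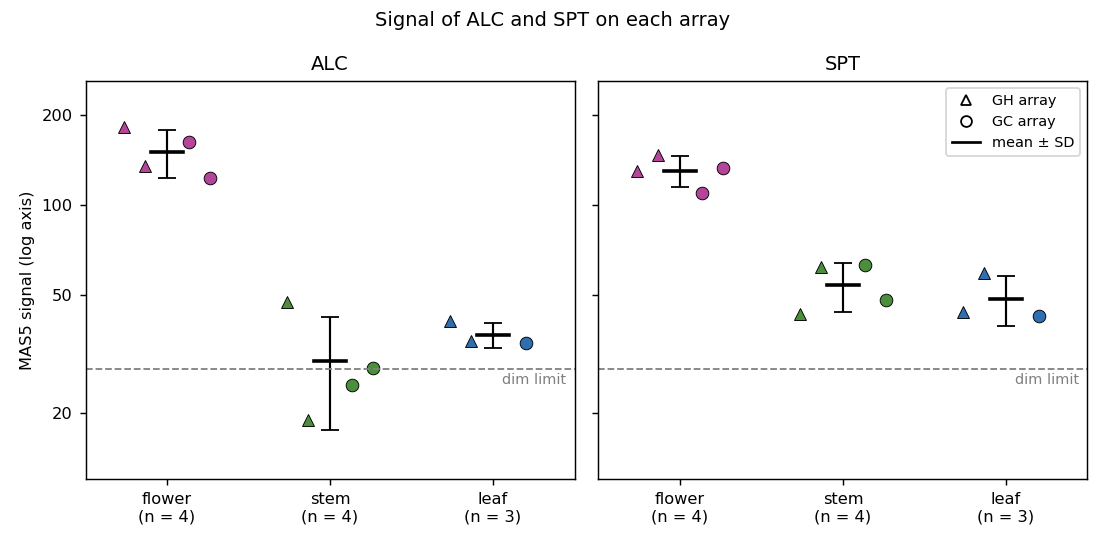
MAS5 signal of ALC (left) and SPT (right) on each array, on a log axis, in flower (n = 4), stem (n = 4) and leaf (n = 3). Triangles are GH arrays, circles GC arrays, bars the mean with its SD, and the dashed line the dim limit of 28.1; every flower array is above every stem and leaf array in both panels, and 2 stem arrays of ALC are below the limit.

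The comparison of flower with leaf asked whether the genes differ between the reproductive shoot and rosette leaves. ALC rose in flower by a log2 fold change of 2.05 ± 0.29 (SE), 4.15-fold, with a 95% confidence interval of 1.42 to 2.69 and an adjusted p of 2.0e-04 in limma's test over all 15718 probe sets kept. SPT rose by 1.45 ± 0.21 (SE), 2.73-fold, with an interval of 0.99 to 1.91 and an adjusted p of 2.6e-04. Both of 2 genes were thus called higher in flower, against 21.3% of all probe sets tested (35.7% were called in either direction). A rise at least as large as that of ALC was found for 5.73% of probe sets and one at least as large as that of SPT for 9.27%. Within the GH arrays alone the log2 fold changes were 2.06 for ALC and 1.44 for SPT (adjusted p = 0.0174 and 0.0140 in limma's test). Within the GC arrays alone, where leaf is a single array, they were 2.04 for ALC and 1.51 for SPT. Without stem GH 1 and leaf GC 1 they were 1.93 for ALC and 1.44 for SPT. With the 3' over 5' ratio as a covariate, an alternative chosen after seeing the data, they were 1.58 for ALC and 1.71 for SPT, so that the rise of ALC was then the smaller one. In bulk tissue, a gene active in fewer cells and a gene with less RNA per cell cannot be told apart.

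The comparison of flower with stem set tissues of the same age side by side. ALC rose in flower by a log2 fold change of 2.40 ± 0.27 (SE), 5.28-fold, with an interval of 1.82 to 2.98 and an adjusted p of 3.6e-05 in limma's test. SPT rose by 1.28 ± 0.19 (SE), 2.43-fold, with an interval of 0.86 to 1.71 and an adjusted p of 3.2e-04. Both of 2 genes were called higher, against 25.5% of all probe sets (40.9% in either direction), and 4.45% of probe sets had a rise at least as large as that of ALC and 11.1% one at least as large as that of SPT. Without stem GH 1 and leaf GC 1, the log2 fold change was 2.67 for ALC and 1.15 for SPT. Within the GH arrays it was 2.39 for ALC and 1.42 for SPT, and within the GC arrays 2.41 for ALC and 1.14 for SPT. The genes therefore shared 2 calls: each was higher in flower than in leaf and also higher than in stem, as were 10.6% of probe sets, and for each every flower array was above every stem and leaf array, as for 13.1% of probe sets.

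Stem and leaf were not told apart by either gene. ALC had a log2 fold change of -0.35 ± 0.29 (SE) in stem against leaf, with an interval of -0.98 to 0.29 and an adjusted p of 0.373 in limma's test. SPT had 0.17 ± 0.21 (SE), with an interval of -0.30 to 0.63 and an adjusted p of 0.572. Neither had an unadjusted p under 0.05 (0.254 for ALC and 0.451 for SPT), while 39.6% of all probe sets were called in this comparison in one direction or the other. The intervals allowed ALC to be up to 0.98 lower and SPT up to 0.63 higher in stem on the log2 scale, so equal levels were not shown. For ALC the value moved with single stem arrays: it was -0.64 without stem GH 1 (adjusted p = 0.0588) and -0.07 without stem GH 2 (adjusted p = 0.855). Without stem GH 1 and leaf GC 1 it was -0.74 for ALC (adjusted p = 0.0864) and 0.29 for SPT (adjusted p = 0.417). With the 3' over 5' ratio as a covariate the value of ALC was -0.77, which passed the threshold (adjusted p = 0.0391), so this call depends on how RNA quality is treated. The order of levels was thus flower above leaf and stem for ALC, and flower above stem and leaf for SPT, with the lower 2 tissues not separated in either gene.

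**Figure D2:**
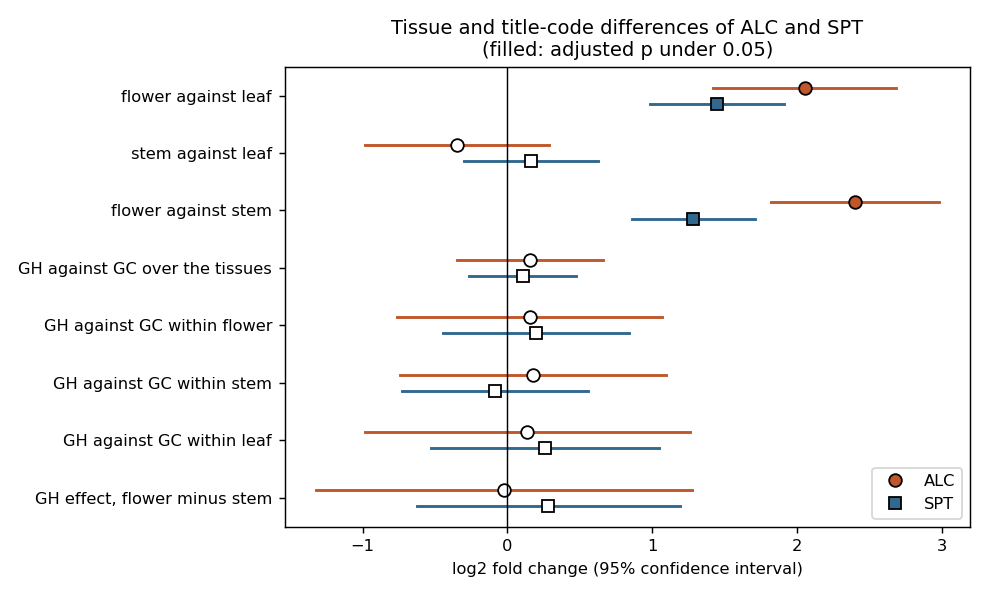
Log2 fold change of ALC (circles) and SPT (squares) in each tissue and title-code comparison, with its 95% confidence interval; filled symbols have an adjusted p under 0.05. The filled symbols are the flower against leaf and flower against stem comparisons of both genes, and every interval of the other comparisons includes 0.

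GH and GC arrays did not separate for either gene. Over the tissues the log2 fold change of GH against GC was 0.16 ± 0.23 (SE) for ALC, with an interval of -0.35 to 0.66 and an adjusted p of 0.845, and 0.11 ± 0.17 (SE) for SPT, with an interval of -0.26 to 0.47 and an adjusted p of 0.862. In limma's test 0 of the 2 genes were called, 0 had an unadjusted p under 0.05, and 0.00636% of all probe sets were called. Within a tissue 0 of 2 were called as well, against 0.0254% of probe sets in flower, 0.0827% in stem and 0.235% in leaf. Within flower, ALC had a mean signal of 159 on GH and 143 on GC arrays, a log2 fold change of 0.15 ± 0.41 (SE), and SPT had 138 on GH and 121 on GC arrays, 0.20 ± 0.29 (SE). Within stem, ALC had a mean of 33.2 on GH and 26.5 on GC arrays, 0.18 ± 0.41 (SE), and SPT had 52.4 on GH and 55.2 on GC arrays, -0.09 ± 0.29 (SE). Within leaf, ALC differed by 0.14 ± 0.50 (SE) and SPT by 0.26 ± 0.35 (SE), where GC is a single array that is assumed to vary like the other groups, from whose spread the SE comes. The GH effect in flower minus that in stem was -0.03 ± 0.58 (SE) for ALC and 0.28 ± 0.40 (SE) for SPT, and neither passed the test of the difference (adjusted p = 0.995 for ALC and 0.950 for SPT, with 0% of probe sets called). Equal levels were not shown: within stem the interval for ALC ran from -0.74 to 1.10, and within flower that for SPT from -0.45 to 0.84.

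ALC and SPT were set against each other as the log2 ratio of their signals on the same array. Probe sets differ in brightness per transcript, so the ratio does not say which gene is more abundant, and only its change between tissues can be read. The log2 ratio of ALC over SPT was 0.49 on GH 1, -0.13 on GH 2, 0.57 on GC 1 and -0.12 on GC 2 in flower, and 0.14 on GH 1, -1.70 on GH 2, -1.34 on GC 1 and -0.76 on GC 2 in stem. In leaf it was -0.10 on GH 1, -0.76 on GH 2 and -0.31 on GC 1. Stem GH 1 lay within the range of the flower arrays, while the other 3 stem arrays were below all of them.

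The ratio averaged 0.20 ± 0.38 in flower (SD, n = 4), -0.91 ± 0.81 in stem (SD, n = 4) and -0.39 ± 0.34 in leaf (SD, n = 3). In flower against stem the difference was 1.12 ± 0.44 (SE), which did not pass a two-sided exact permutation test (p = 0.0857, adjusted p = 0.257 over the 3 tissue pairs, smallest possible p 0.0286). In flower against leaf it was 0.60 ± 0.27 (SE, exact p = 0.171, adjusted p = 0.257), and in stem against leaf -0.52 ± 0.45 (SE, exact p = 0.4, adjusted p = 0.4), where 3 arrays against 4 cannot go below 0.0571. After adjustment over the 3 pairs no p can fall below 0.0571 with these numbers of arrays, so the test could not have passed the threshold of 0.05, and whether the rises of ALC and SPT in flower differ was not settled by it. Without stem GH 1 the difference between flower and stem was 1.47.

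Within a tissue, the genes tended to lie on opposite sides of their means. Of 11 arrays, 9 had ALC above its tissue mean with SPT below, or the reverse, on the log2 scale, and for 4.87% of all probe sets this was so on at least as many arrays with respect to ALC. ALC deviated most on stem GH 1, where it was at 0.75 and SPT at -0.31, and on stem GH 2, where it was at -0.57 and SPT at 0.22. SPT deviated most on stem GH 1 and on leaf GH 2, where it was at 0.31 and ALC at -0.07. The exceptions were flower GH 1, with 0.30 for ALC and 0.01 for SPT, and leaf GC 1, with -0.09 for ALC and -0.17 for SPT. Pearson's r of these deviations was -0.67 over the 11 arrays and -0.50 over the 10 arrays without stem GH 1, and 8.09% and 11.5% of probe sets had as low an r to ALC. Arrays share RNA extract and scan across genes, so these values are descriptive. Stem GH 1 and flower GH 1, with the highest ALC of their tissue, also had the highest mean log2 3' over 5' ratio of theirs, 2.92 and 2.16. In leaf the highest ALC was on GH 1, with a ratio of 0.98, and the highest ratio was 1.09 on GH 2, and stem GH 2, with the lowest ALC in stem, had the ratio of 1.36 that was next to the highest there. The part of RNA quality in these deviations was not tested. About the fitted tissue and code means, the residual SD was 0.40 for ALC and 0.25 for SPT on the log2 scale, beside a median of 0.33 over all probe sets.

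**Figure D3:**
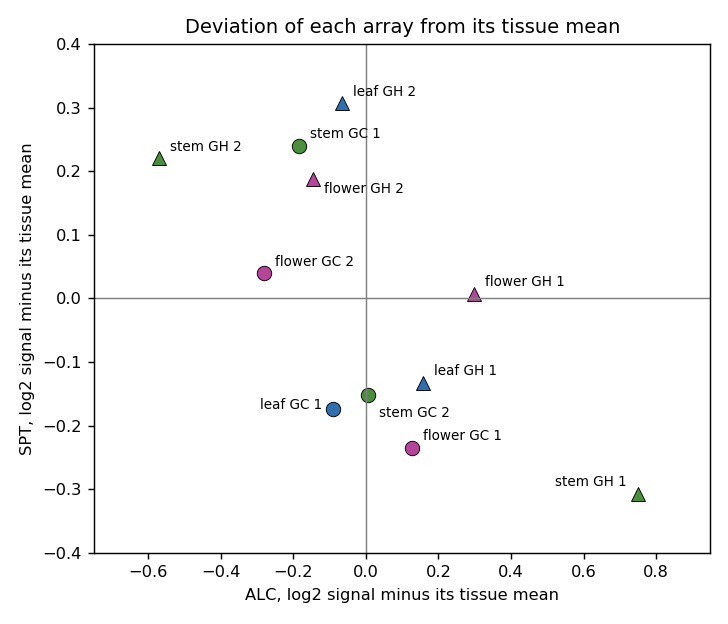
Log2 signal of ALC (horizontal axis) and SPT (vertical axis) on each of the 11 arrays, minus the mean of its own tissue. Triangles are GH arrays and circles GC arrays, coloured by tissue; 9 arrays lie at the upper left or lower right of the crossed lines, with stem GH 1 farthest out at 0.75 for ALC and -0.31 for SPT.

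The genes whose profile over the 11 arrays was nearest to each member were found by the root mean square (RMS) difference of log2 signals, each profile centred on its own mean, among 8582 other probe sets of 1 gene. Nearest to ALC was DI21, drought-induced 21, with an RMS difference of 0.25, and signals of 165 ± 36.0 in flower (SD, n = 4), 29.5 ± 8.12 in stem (SD, n = 4) and 37.3 ± 6.63 in leaf (SD, n = 3). The next were AT4G16270 (0.31), AT5G43020 (0.31), AT2G34810 (0.34) and AT5G66590 (0.37), which the sources used here give no role. These 5 were picked for likeness to ALC on the same arrays, so that they too were highest in flower is no separate result. Apart from AT4G16270, they had a lower mean in stem than in leaf.

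Nearest to SPT was AUR1, an Aurora kinase of cell division, with an RMS difference of 0.18 and signals of 155 ± 11.0 in flower (SD, n = 4), 61.2 ± 7.74 in stem (SD, n = 4) and 57.9 ± 6.68 in leaf (SD, n = 3). It was followed by B160 (0.22), AT1G34340 (0.22), AT5G63940 (0.23) and AT2G02780 (0.23). No gene was among the 5 nearest of both members. SPT stood at rank 193 from ALC, and ALC at rank 2716 from SPT, both with an RMS difference of 0.68, and without stem GH 1 the ranks were 218 and 3193. The RMS difference counts the size of a change as well as its direction. Pearson's r between the log2 signals of ALC and SPT was 0.83 over all 11 arrays and 0.87 without stem GH 1. The lists themselves depended on the measure: by Pearson's r, 2 of the 5 nearest to ALC remained (DI21 and AT5G43020) and 0 of the 5 nearest to SPT, and without stem GH 1, 2 of 5 remained for each (DI21 and AT4G16270 for ALC, AUR1 and AT2G02780 for SPT).

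**Figure D4:**
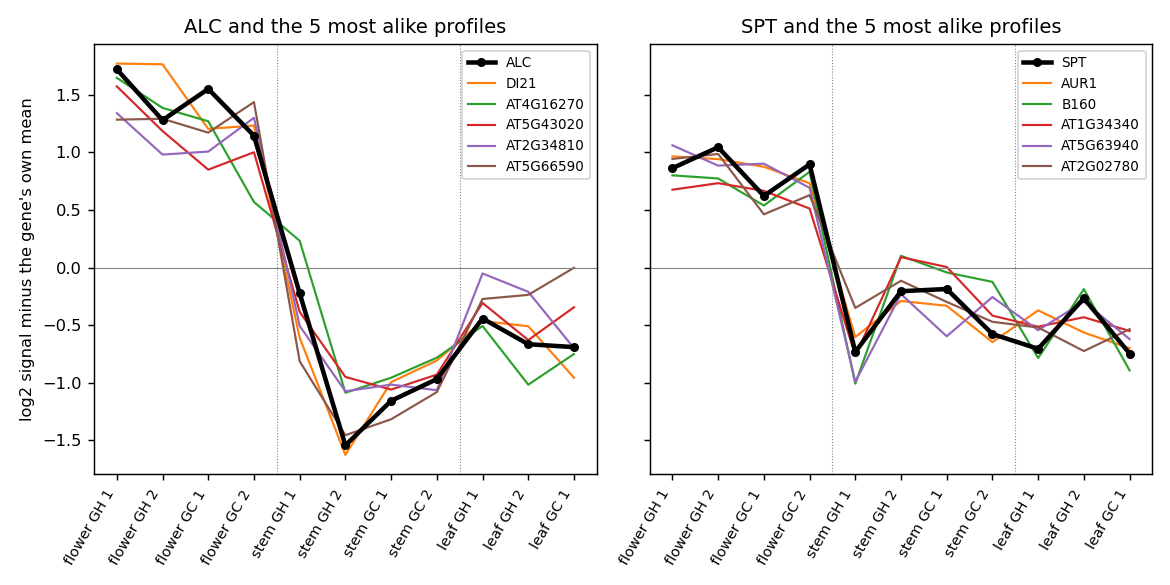
Log2 signal minus the gene's own mean on each of the 11 arrays for ALC (left) and SPT (right), in black with points, and for the 5 genes of smallest RMS difference from each, in colour. The vertical dotted lines part flower, stem and leaf arrays, and every line is above 0 on the 4 flower arrays, as follows from picking genes for likeness.

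Other regulators of the carpel were measured through a list of 33 genes of gynoecium and carpel patterning besides ALC and SPT, of which 9 were on named probe sets and 8 were kept by the filter on dim values. Against leaf, 3 of 8 rose in flower and 0 fell, where 21.3% of all probe sets were called higher. The median log2 fold change was 0.79, beside 0.16 over all probe sets. CES, also called HAF, a bHLH factor of the transmitting tract, had 139 ± 17.7 in flower (SD, n = 4) and was under the dim limit on all stem and leaf arrays, so that it was at least 4.90-fold higher in flower than in either. CES passed the filter through flower alone, so a fall in flower was not open to it. INO, a YABBY factor of the outer integument of the ovule, rose to 61.3 ± 6.89 in flower (SD, n = 4), against 23.9 ± 8.01 in leaf (SD, n = 3), a log2 fold change of 1.34 ± 0.27 (SE). TSO1, a protein of flower and ovule development, rose by 0.91 ± 0.21 (SE). NGA1, a B3 factor of the style, had 2.41 ± 0.95 (SE) and did not pass (adjusted p = 0.0679 in limma's test). Its signals were 59.7 to 71.1 in flower and 1.30 to 56.9 in leaf, with 1 of 3 leaf arrays above the dim limit. The fitted value of NGA1 is therefore no measure of size. Without stem GH 1 and leaf GC 1, 5 of 8 rose, as did 3359 of all 15718 probe sets.

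Against stem, 4 of these 8 rose in flower and 0 fell, with a median of 1.15 beside 0.17 over all probe sets, of which 25.5% rose. The 4 were CES, INO (1.16 ± 0.25 SE), TSO1 (1.14 ± 0.19 SE) and NGA1, which was dim on all stem arrays and at least 2.33-fold higher in flower. In stem against leaf 0 of 8 were called in limma's test, against 39.6% of all probe sets, and 0 of 8 had an unadjusted p under 0.05. Of the genes set as markers of carpel and fruit, AG, STK, CRC, SHP1, SHP2, INO, FUL and IND, INO alone was on a named probe set, and the others were not analysed here.

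Of 22 other genes of the valve margin and of fruit opening, the domain in which ALC is known to act, 3 were on named probe sets and 1 was kept. YAB3, a YABBY factor of lateral organs and fruit valves, had 75.9 ± 18.4 in flower (SD, n = 4) and 122 ± 6.52 in leaf (SD, n = 3), and was dim on every stem array, at least 2.64-fold higher in flower than in stem. Its difference between flower and leaf did not pass (-0.73 ± 0.75 SE, adjusted p = 0.484 in limma's test). That SE pools the spread of all tissues, including the dim stem arrays with signals of 1.92 to 22.7. Its signals were 55.8 to 99.0 in flower and 116 to 129 in leaf, so equal levels were not shown. ADPG1, a polygalacturonase of the dehiscence zone, had 26.9 ± 4.36 in flower (SD, n = 4), 6.09 ± 4.05 in stem (SD, n = 4) and 8.74 ± 3.93 in leaf (SD, n = 3), and was not tested because too few arrays were above the limit. JAG, a zinc finger factor of lateral organ growth, was likewise under the filter, with 19.4 ± 7.65 in flower (SD, n = 4). None of the 9 other members of the PIF-type bHLH family, to which both genes belong, was on a named probe set.

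Among genes of gibberellin perception and DELLA turnover, 5 were tested of 26 listed. SLY1, the F-box protein that marks DELLA proteins for breakdown, rose in flower against leaf by 0.77 ± 0.27 (SE, adjusted p = 0.0400 in limma's test), and the other 4 were not called. Without stem GH 1 and leaf GC 1, 0 of 5 were called. The related SLY2 had 0.74 ± 0.29 (SE), the gibberellin receptor GID1C -0.53 ± 0.27 (SE) and SPY, an enzyme that modifies DELLA proteins, 0.30 ± 0.31 (SE). In flower against stem 0 of 5 were called, with 1 at an unadjusted p under 0.05 (SLY1), and in stem against leaf 0 of 5, with 0 at an unadjusted p under 0.05. Of all probe sets, 35.7% were called in flower against leaf, 40.9% in flower against stem and 39.6% in stem against leaf. Of 22 genes of auxin transport and response, YUC2, an auxin synthesis enzyme, was the only one tested, and it was not called in any tissue comparison (log2 fold change -0.16 ± 0.27 SE in flower against leaf).

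The other named bHLH factors of the array, a list drawn up after the annotation was read, numbered 19, of which 15 were tested. In flower against leaf 5 rose and 1 fell, with a median of 0.08 beside 0.16 over all probe sets. Of all probe sets, 21.3% rose and 35.7% were called in either direction. BPEp, a factor of petal size, had 102 ± 17.2 in flower (SD, n = 4) and was dim on all stem and leaf arrays, at least 3.61-fold higher in flower than in either. BIM1, of brassinosteroid response, rose by 0.89 ± 0.19 (SE), and LHW, of vascular development, by 1.01 ± 0.22 (SE). CES and AMS, a factor of the tapetum, were the remaining rises, and PYE, of iron balance, was the fall (AMS and PYE are named after their values were seen). In flower against stem 5 rose and 0 fell, with a median of 0.33 beside 0.17, where 25.5% of all probe sets rose. In stem against leaf 1 was higher and 4 were lower, where 39.6% of all probe sets were called. ALC and SPT thus shared their 2 calls, in flower over leaf and over stem, with 4 of these 15: CES, BPEp, LHW and AMS. CES, BPEp and AMS were dim on every stem and leaf array and passed the filter through flower alone, so a fall in flower was not open to them. LHW was above the limit on every array. The same 2 calls were made for 10.6% of all probe sets.

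Factors of the floral meristem and organs, also listed after the annotation was read, numbered 19, and 10 were tested. In flower against leaf 7 rose and 1 fell, with a median of 1.43 beside 0.16 over all probe sets, of which 21.3% rose. ULT1, of floral meristem size, rose by 1.72 ± 0.25 (SE), HLL, a mitochondrial ribosomal protein needed for ovules, by 1.13 ± 0.18 (SE). AGL42, a MADS factor, rose too, and since it was dim on every leaf array it was at least 2.49-fold higher in flower. In flower against stem 4 rose and 1 fell, with a median of 0.44 beside 0.17, where 25.5% of all probe sets rose. HLL rose in that comparison too, by 0.70 ± 0.16 (SE), while ULT1 (-0.35 ± 0.23 SE) and AGL42 (-0.20 ± 0.33 SE) were not called. In stem against leaf 4 were higher and 0 lower, among them ULT1 (2.07 ± 0.25 SE) and AGL42 (at least 2.85-fold higher in stem), a pattern not called for ALC or SPT. Of all probe sets, 39.6% were called in that comparison. Of the 10 tested, BPEp, VDD and EMS1 were above the dim limit on every flower array and on no stem or leaf array. They passed the filter through flower alone, so a fall in flower was not open to them. VDD is a B3 factor of the embryo sac and EMS1 a receptor kinase of the anther, both named after their values were seen.

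**Figure D5:**
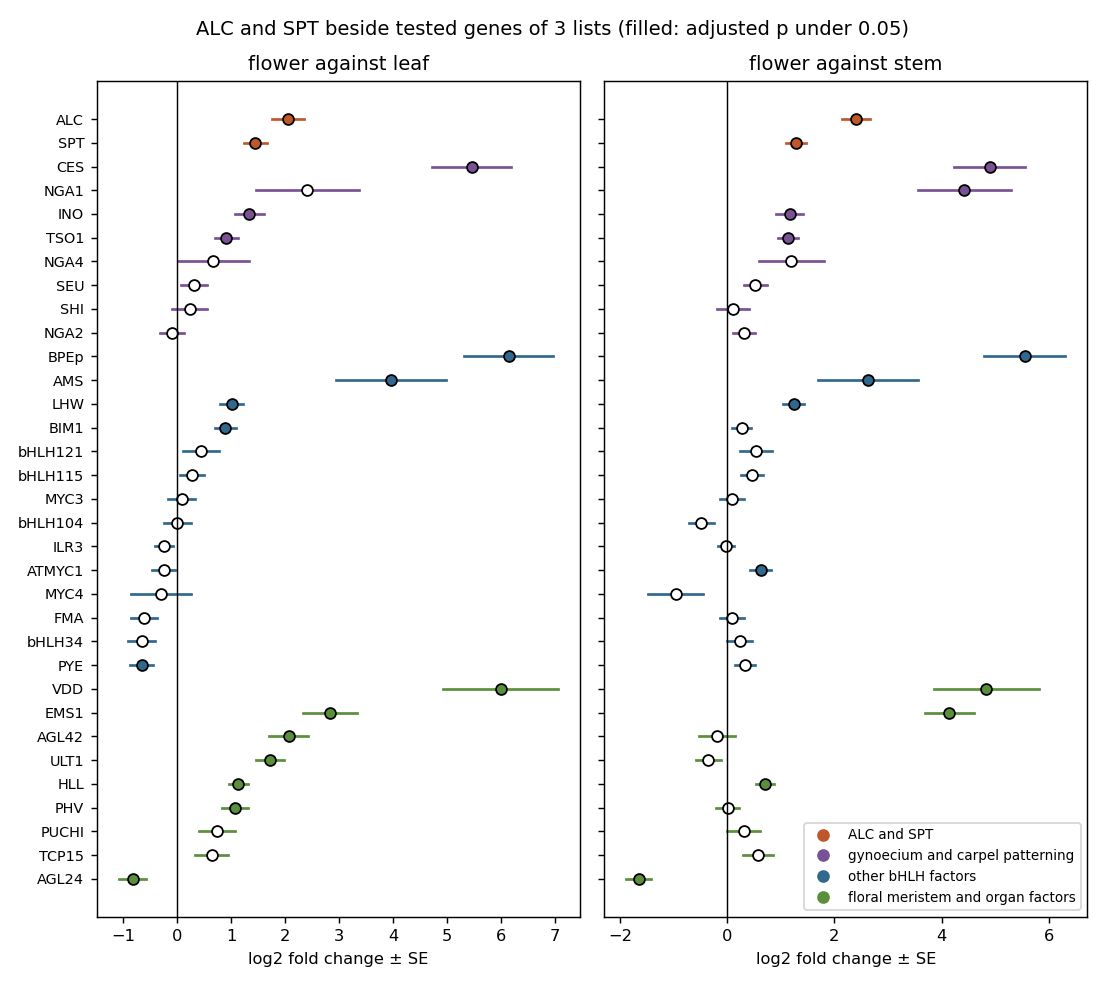
Log2 fold change with its SE in flower against leaf (left) and flower against stem (right) for ALC and SPT and for the tested genes of 3 lists, 8 of gynoecium and carpel patterning, 14 other bHLH factors and 9 of the floral meristem and organs, each gene drawn once. Points are fitted values, which are no measure of size for genes dim on every array of a tissue, nor for NGA1 against leaf, where 1 of 3 leaf arrays was above the limit. Filled points have an adjusted p under 0.05; ALC (2.05 and 2.40) and SPT (1.45 and 1.28) are filled in both panels, while ULT1 and AGL42 are filled on the left and open on the right.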

How the data were processed

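The authors deposited intensity values, MAS5 signals on a linear scale, as the submitters' processing notes name the tool. Its version and scaling are not given here. The number of arrays limits the precision. The files name no genome build, so no coordinates are printed. Of 22810 probe sets, 64 were controls and 13513 named 1 gene. The controls were not tested. They served for RNA quality and were among the values from which the dim limit, the pseudocount and the normalizations were computed. Loci and neighbouring genes are those of RefSeq's TAIR10.1 annotation.

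Log2 signals of 15718 probe sets, those above the 40th percentile (28.1) on at least 3 of 11 arrays and no controls, entered limma's lmFit and eBayes with trend (limma 3.58.1, R 4.3.3). Every adjusted p of limma is Benjamini-Hochberg over all of them, and calls were made below 0.05. The models were tissue plus title code for tissue differences and for GH against GC, and 1 mean per tissue and code for effects inside a tissue. ALC over SPT was compared by exact permutation (scipy 1.17.1, Python 3.11.15). Where all arrays of a tissue were dim, the fold is a lower bound with each dim array set at the limit. The fit was tested on simulated data.

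The genes ALC and SPT and the gene lists were chosen with earlier results of these data known, and 2 lists after the annotation was read. Besides ALC and SPT, the text names up to 4 genes per list, by lowest adjusted p in flower against leaf, and the 5 genes nearest to each member. AMS, PYE, VDD and EMS1 were named after their values were seen. The alternatives changed the normalization (quantile, 75th percentile), the filter (none, or the 60th percentile at 63.4), the pseudocount (8.86), the trend, the code covariate, the replicate block and the arrays fitted. A covariate for the 3' over 5' ratio was chosen after seeing the data.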

Additional observations from a re-analysis of the deposited data

How the results depend on the processing

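The rises of ALC and SPT in flower over leaf and over stem kept their direction and their side of the threshold in all 24 alternatives run: 1.58 to 2.15 and 2.08 to 2.67 for ALC, 1.28 to 1.71 and 1.10 to 1.42 for SPT, as log2 fold changes. Leaving out 1 array at a time gave 1.96 to 2.15 and 2.15 to 2.66 for ALC and 1.36 to 1.58 and 1.15 to 1.39 for SPT. In stem against leaf, ALC passed the threshold with the 3' over 5' covariate (-0.77), the only alternative in which it did, and its values without 1 array were -0.64 to -0.07. The cause was not tested.

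The GH effect of ALC, called in none of these settings, changed sign. Over the tissues it was -0.10 without stem GH 1 and leaf GC 1, -0.24 with the 3' over 5' covariate, and between -0.033 without stem GH 1 and 0.34 among the fits without 1 array. Within flower it lay between -0.068 without flower GH 1 and 0.37, with -0.051 without flower GC 2. Within stem it was -0.48 to 0.84, -0.48 without stem GH 1 and also without stem GH 1 and leaf GC 1. The GH effect in flower minus that in stem ran from -0.69 to 0.63, with 0.63 in both of these settings, 0.18 without flower GC 1, 0.20 without flower GH 2 and 0.07 without stem GC 1. For SPT within stem it was -0.35 to 0.18, with 0.18 without stem GH 1 and without stem GH 1 and leaf GC 1, and 0.11 without stem GC 1. The log2 ratio of ALC over SPT kept its direction in its 15 alternatives, 0.85 to 1.47 in flower against stem, 0.41 to 0.74 in flower against leaf and -0.87 to -0.26 in stem against leaf, and its adjusted test cannot pass at these sizes.

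Over the lists fixed with the design, the tissue marker lists left out, 1 of 15 genes was called in stem against leaf, where 39.6% of all probe sets were. With no filter 3 genes of these lists were called, and with a pseudocount 2. Of the 5 genes nearest to ALC, 2 remained by Pearson's r and 2 without stem GH 1, and of those nearest to SPT 0 and 2.

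Scaling moved the median of all probe sets. It was 0.16 in flower against leaf as deposited, with 3354 higher and 2263 lower, and 0.03 with 75th percentile centring (2650 and 2699) and 0.00 with quantile normalization (2781 and 2677). In flower against stem it was 0.17 (4008 and 2413), 0.02 (3200 and 3056) and -0.01 (3171 and 2958). ALC and SPT stayed called as higher under both, with 1.92 and 1.89 for ALC and 1.32 and 1.28 for SPT against leaf. Calls over all probe sets were 5617 in flower against leaf, 6222 in stem against leaf and 6421 in flower against stem. In flower against stem they were 4257 within GC and 2976 within GH. GH against GC gave 1 call over the tissues (0 to 16 in the alternatives), 4 in flower (0 to 13), 37 in leaf (3 to 86), 13 in stem (2 to 1155) and 0 for the difference of flower and stem (0 to 210). The highest values in stem and for the difference were those without stem GH 2.

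Same-numbered replicates did not deviate together: r of replicate 1 minus replicate 2 between groups was -0.07 to 0.07. This does not exclude that equal numbers mark paired samples, since a pairing need not shift all genes together. A replicate block gave 2.13 for ALC and 1.41 for SPT in flower against leaf, and 2.40 and 1.28 in flower against stem, and it changed no call of either gene.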

Other observations

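The genes beside ALC on its chromosome, in RefSeq's annotation, were measured in part. ICU2, the neighbour on the lower-numbered side and the catalytic subunit of DNA polymerase alpha, had 69.8 ± 2.77 in flower (SD, n = 4), 30.4 ± 13.6 in stem (SD, n = 4) and 45.5 ± 3.23 in leaf (SD, n = 3). It rose in flower over stem (log2 fold change 1.31 ± 0.30 SE, adjusted p = 0.00423 in limma's test) and did not pass over leaf (0.61 ± 0.32 SE, adjusted p = 0.169). AT5G67090, beyond ICU2, was highest in stem, with 25.2 ± 5.29 in flower (SD, n = 4), 52.2 ± 15.8 in stem (SD, n = 4) and 12.9 ± 4.42 in leaf (SD, n = 3). It fell in flower against stem (-1.04 ± 0.33 SE, adjusted p = 0.0265 in limma's test). AT5G67130, on the other side of ALC, had 278 ± 14.9 in flower (SD, n = 4), 131 ± 36.5 in stem (SD, n = 4) and 185 ± 50.9 in leaf (SD, n = 3), and rose in flower over stem (1.13 ± 0.22 SE, adjusted p = 0.00168 in limma's test). Over leaf it did not pass (0.63 ± 0.24 SE, adjusted p = 0.0608 in limma's test). Of these 3 genes 0 were called higher in flower in both comparisons, against 10.6% of all probe sets. The neighbours of SPT were not analysed here.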
